A study of Mus musculus with 3 samples.

Results

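Spots rich in transcripts of vessel smooth muscle were examined in spatial transcriptome sections of mouse heart. In each section separately, a spot was called smooth muscle-rich when its summed UMIs (unique molecular identifiers, each standing for 1 captured transcript) of Myh11, Tagln and Acta2 per 10000 UMIs of the spot reached the 95th percentile of that section. The spots had at least 200 detected genes. This gave 315 smooth muscle-rich spots of 6276, with 112 of 2234 in sham, 105 of 2082 in I/R and 98 of 1960 under SBP. The data were Visium libraries, in which a frozen section lies on barcoded capture spots and each spot records a small piece of tissue that can hold several cells of different types. There was 1 section for each condition. The hearts were from C57BL/6 mice that were all gavaged for 7 days before the operation. Sham animals received vehicle and had the needle passed without ligation. I/R animals received vehicle, and the LAD, the artery that feeds the front wall of the left ventricle, was tied off for 30 min and reopened for 24 h. SBP animals received MUSKARDIA (Shexiang Baoxin Pill, a traditional Chinese medicine) and then the same ligation and reopening. With 1 section per condition, spots are not replicates, no test between conditions exists, and the condition cannot be told apart from the mouse, the level of the cut and the library. All intervals are at the 95% level and cover counting error only.

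The wall of an artery is built from layers of smooth muscle cells around an endothelial lining, with elastic fibres between them and fibroblast-rich adventitia outside. Smooth muscle cells contract when myosin light chain kinase (Mylk) phosphorylates the regulatory light chain (Myl9) of smooth muscle myosin (Myh11), which pulls on actin filaments (Acta2) that carry transgelin (Tagln), calponin (Cnn1) and tropomyosin (Tpm2). Many of these genes are switched on together by serum response factor with its partner myocardin, which bind the CArG box, a short motif with CC at its start, GG at its end and a run of A and T between them. Injured vessels can lose this contractile programme and turn on matrix and inflammatory genes. Pericytes, the mural cells of capillaries, share some of these genes but are marked by others such as Rgs5, Kcnj8 and Abcc9.

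The CArG box was looked for in the 250 bases before each RefSeq start entered for a gene (GRCm38.p6), on both strands, which are equivalent for this motif. A gene with several starts was counted when any of them had a match, so such a gene had more chances of a match. Of the 148 genes that were enriched in smooth muscle-rich spots of every section, as described further on, 115 had a promoter entry and 6 of these (5.22%) held the box, against 85 of 4957 genes (1.71%) with an entry and at least 200 UMIs in each section. The 6 genes were Myl9, Myl6, Cnn2, Filip1l, Igf2 and Glipr2. The MCAT motif CATTCC, bound by TEAD factors and searched on both strands in the same window, was present for 25 of the 115 genes (21.7%) and for 13.2% of the larger set. The stretches around the box are shown for the 4 of the 6 genes whose box lay outside annotated exons, with the box in capitals, since these are the promoters in which an enriched gene and the motif coincide. They lie at chr2:156775223-156775392 on the plus strand for Myl9, chr10:79988464-79988583 on the plus strand for Cnn2, chr16:57549100-57549241 on the plus strand for Filip1l and chr7:142661337-142661506 on the minus strand for Igf2, and each is written 5′ to 3′.
Myl9: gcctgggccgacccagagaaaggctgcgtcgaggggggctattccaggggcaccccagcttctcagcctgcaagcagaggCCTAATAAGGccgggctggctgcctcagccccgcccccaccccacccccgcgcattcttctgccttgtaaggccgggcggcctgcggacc
Cnn2: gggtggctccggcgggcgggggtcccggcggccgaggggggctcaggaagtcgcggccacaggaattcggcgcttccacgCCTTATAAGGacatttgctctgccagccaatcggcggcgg
Filip1l: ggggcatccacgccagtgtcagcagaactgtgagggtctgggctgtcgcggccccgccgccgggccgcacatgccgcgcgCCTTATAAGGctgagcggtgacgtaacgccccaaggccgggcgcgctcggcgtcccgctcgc
Igf2: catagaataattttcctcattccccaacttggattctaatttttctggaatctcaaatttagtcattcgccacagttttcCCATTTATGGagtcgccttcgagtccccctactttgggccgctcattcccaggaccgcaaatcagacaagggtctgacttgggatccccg
The box began 161 bases before the start of Myl9, 56 before that of Cnn2, 62 before that of Filip1l and 155 before that of Igf2. Igf2 had 4 entered starts and Filip1l 2, and the distance and stretch given for each belong to 1 of them. Filip1l encodes a filamin-interacting protein, and its ratio of smooth muscle-rich over other spots was 2.16 on the log2 scale in sham, 2.37 in I/R and 1.94 under SBP. A match is a description of these letters and not of binding, and a promoter without a match may carry the motif elsewhere.

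The score differed between the sections before any other gene was considered. The threshold was 7.87 UMIs per 10000 in sham, 7.11 in I/R and 4.15 under SBP, and 388, 682 and 1122 spots, in that order, had no UMI of the 3 genes. The last spot inside and the first outside had scores of 7.87 and 7.86 in sham, 7.11 and 7.11 in I/R, and 4.20 and 4.14 under SBP. Among the smooth muscle-rich spots the median score was 11.6 in sham, 12.1 in I/R and 8.40 under SBP, and the highest was 106, 199 and 97.7. The score rested on few molecules in many spots, since the median smooth muscle-rich spot held 13 UMIs of the 3 genes in sham, 16 in I/R and 7 under SBP, and the spot with the fewest held 1 in each section. All 3 genes were detected together in 64.3% of smooth muscle-rich spots in sham (95% interval 54.7 to 73.1%), 65.7% in I/R (55.8 to 74.7%) and 44.9% under SBP (34.8 to 55.3%).

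**Figure D1:**
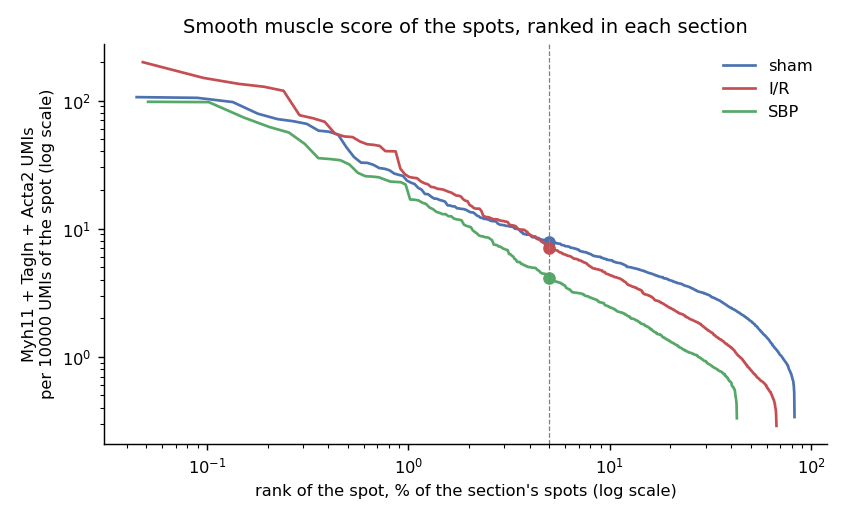
Score of each spot (Myh11, Tagln and Acta2 UMIs per 10000 UMIs, log scale) against its rank within the section in percent of spots (log scale), for sham (blue), I/R (red) and SBP (green); spots with a score of 0 are not drawn, and the dots on the dashed line mark the 95th percentile. The curve of SBP lies under the others over most of its length, with a threshold of 4.15 against 7.87 in sham and 7.11 in I/R.

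The UMI total of the smooth muscle-rich spots was 1238514 in sham, 1312942 in I/R and 927023 under SBP, out of 25118258, 30238530 and 21631280. Levels are given as CPM, the UMIs of a gene summed over a set of spots per 1000000 UMIs of that set, and genes with few molecules are given with their UMIs. In spots, a lower level from fewer cells of a type and one from less RNA per cell cannot be told apart. Median UMIs per spot were 10666 in smooth muscle-rich and 10643.5 in other spots of sham, 12800 and 14715 in I/R, and 9570 and 10694 in SBP. Mitochondrial genes took 41.4% of UMIs in smooth muscle-rich spots and 49.0% in the others in sham, 29.4% and 45.0% in I/R, and 38.02% and 46.7% under SBP. The median gene was itself higher in smooth muscle-rich spots, by 0.29 on the log2 scale in sham, 0.52 in I/R and 0.32 under SBP. With mitochondrial UMIs left out these medians were 0.06, 0.14 and 0.08. For this and all later values without mitochondrial UMIs, the score was recomputed without them and the spots were chosen again. Such values therefore differ in the spots as well as in the total. The sections shared spot barcodes (1207 to 1568 between pairs and 1093 in all 3), and 1 barcode was smooth muscle-rich in every section.

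The 3 genes that chose the spots are given as a description. Myh11, the smooth muscle myosin heavy chain (ENSMUSG00000018830, chr16:14194535-14291372), had 297 CPM in smooth muscle-rich and 9.30 CPM in other spots of sham, 295 and 8.78 in I/R, and 210 and 5.07 in SBP. Tagln had 438 and 13.8 CPM in sham, 531 and 16.2 in I/R, and 346 and 7.68 under SBP. Acta2 had 1377 and 196 CPM in sham, 1957 and 86.3 in I/R, and 987 and 42.5 under SBP. Acta2 made up 65.2% of the score UMIs in smooth muscle-rich spots of sham, 70.3% in I/R and 63.9% in SBP. Its level outside these spots separated the sections most: a UMI of Acta2 was detected in 79.0% of the other spots of sham, 58.5% in I/R and 33.1% in SBP, against 8.95, 11.0 and 5.05% for Myh11. The smooth muscle-rich spots held 33.4% of all UMIs of the 3 genes in sham, 53.2% in I/R and 55.6% under SBP.

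The label was checked by choosing the spots with 2 of the genes and reading the remaining one. Myh11 was 4.71 higher on the log2 scale (95% interval 4.47 to 4.95) in spots chosen by Tagln and Acta2 in sham, 4.96 (4.73 to 5.19) in I/R and 4.99 (4.65 to 5.33) under SBP. Tagln, read in spots chosen by Myh11 and Acta2, gave 4.75, 4.91 and 5.22. Acta2, read in spots chosen by Myh11 and Tagln, gave 2.52 (2.44 to 2.61) in sham, 4.30 (4.22 to 4.38) in I/R and 4.24 (4.10 to 4.38) under SBP. Both genes of each pair belong to the score, and the choice with Acta2 rests mostly on Acta2. Many of the spots were therefore the same. Of those chosen by Tagln and Acta2, 99 of 112 in sham, 99 of 105 in I/R and 87 of 98 under SBP were smooth muscle-rich. Of those chosen by Myh11 and Tagln, 75, 71 and 70 were. Acta2 stood out least in sham, where its level in the other spots was highest.

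Contractile genes outside the score were enriched in the same spots. Enriched is used here for a ratio of levels of at least 2-fold (log2 of 1 or more) among genes with at least 200 UMIs in the section, and depleted for a ratio of 2-fold or more in the other direction. Of the 14 genes in a list of smooth muscle contractile genes, 6 of 11 measured were enriched in sham, 8 of 12 in I/R and 6 of 11 under SBP, and their medians were 2.14, 2.26 and 2.21 on the log2 scale. The background was 368 of 6657 genes enriched in sham (5.53%), 1198 of 8069 in I/R (14.8%) and 454 of 6361 under SBP (7.14%). Depleted genes numbered 24 in sham (0.361%), 81 in I/R (1%) and 56 under SBP (0.88%), none of them a contractile gene.

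Myl9, the regulatory light chain whose promoter is printed above, had the highest ratio in sham and SBP outside the score, among genes with at least 200 UMIs in the section and 50 in smooth muscle-rich spots. The gene lies at chr2:156775420-156781658 (GENCODE M21 on GRCm38). Its level was 530 CPM (95% interval 490 to 572) in smooth muscle-rich spots and 27.6 CPM in the others in sham, 491 (454 to 531) and 23.0 in I/R, and 347 (310 to 387) and 14.8 under SBP. The ratio was 4.26, 4.42 and 4.55 on the log2 scale. By spot, Myl9 ranged from 0 to 29.9 UMIs per 10000 with a median of 2.98 in smooth muscle-rich spots of sham, from 0 to 28.1 with a median of 2.51 in I/R, and from 0 to 17.6 with a median of 1.28 in SBP. The spots overlapped, since the median of the other spots was 0 in every section but the highest of them reached 5.41, 5.90 and 5.59. Cnn1, an actin-binding brake on contraction, had 69.4 CPM against 1.93 in sham, 129 against 4.63 in I/R and 76.6 against 1.64 under SBP. Only in I/R did Cnn1 reach 200 UMIs, and it led the ranking there with a log2 ratio of 4.80.

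Tpm2, smooth muscle tropomyosin, had log2 ratios of 3.86, 3.74 and 3.49 in sham, I/R and SBP, and Mylk, the light chain kinase, 3.496, 3.49 and 3.38. Sncg, gamma-synuclein, gave 3.13, 3.02 and 3.22. Flna, a filamin that crosslinks actin, gave 2.70, 2.43 and 2.41, and Cald1, caldesmon, 2.14, 2.09 and 2.21. Lmod1, leiomodin, was seen as 55, 68 and 33 UMIs in smooth muscle-rich spots, at 44.4, 51.8 and 35.6 CPM against 1.17, 1.35 and 0.869 CPM elsewhere. Members that heart muscle cells also make did not stand out: Tpm1 had 5365 CPM in smooth muscle-rich and 5456 in other spots of sham (log2 -0.02), and the desmin gene Des had 866 and 754 CPM (0.20). Smtn, smoothelin, gave 0.41, 1.06 and 0.53. Outside the list, muscle genes with high ratios were Mustn1, a small nuclear protein of muscle, at 3.53, 4.43 and 4.30, and Csrp1, a LIM-domain protein of smooth muscle, at 3.02, 2.98 and 2.57.

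**Figure D2:**
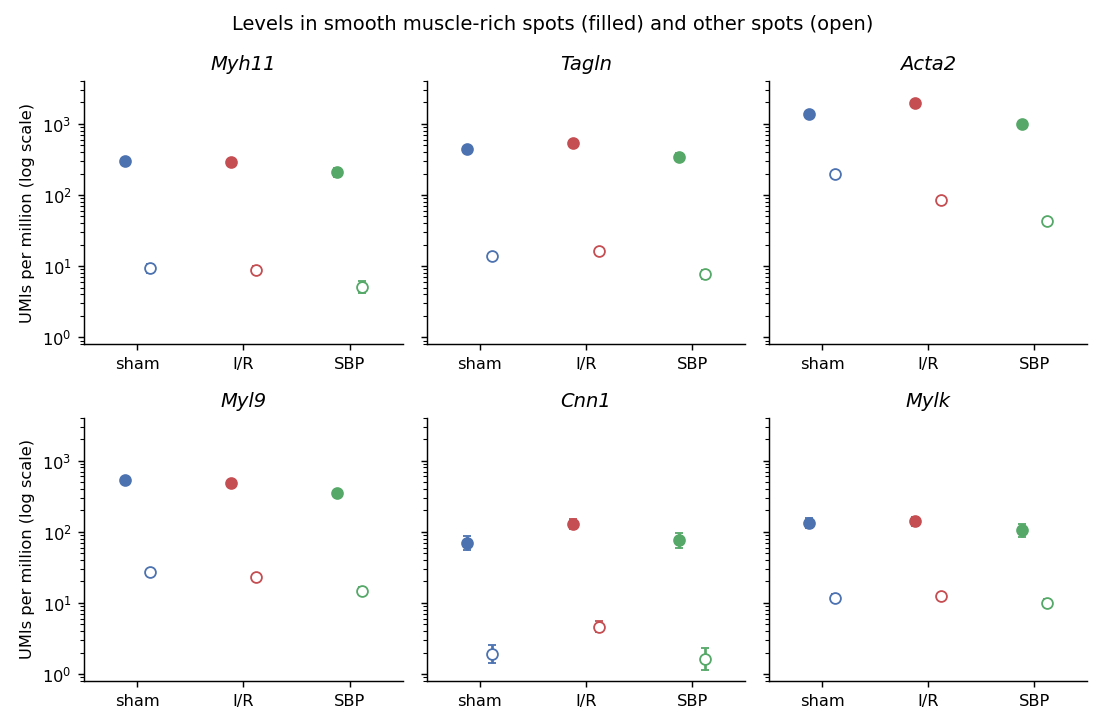
Level (CPM, log scale) of 3 genes that chose the spots (upper row) and 3 that did not (lower row) in smooth muscle-rich spots (filled) and other spots (open) of sham (blue), I/R (red) and SBP (green); bars are 95% Poisson intervals. Myl9 reads 530, 491 and 347 in smooth muscle-rich spots against 27.6, 23.0 and 14.8 in the others, and Acta2 in other spots is highest in sham (196) and lowest in SBP (42.5).

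Regulators and receptors of smooth muscle were low and only some were enriched. Of 14 such genes, 5 of 10 measured were enriched in sham, 4 of 11 in I/R and 2 of 7 under SBP. The share of all genes was 5.53%, 14.8% and 7.14%. Myocd, myocardin itself, had 3, 3 and 6 UMIs in smooth muscle-rich spots, too few to compare, and Srf had 12, 34 and 10. Notch3, the Notch receptor of arterial smooth muscle, had 75.1 CPM against 20.7 in sham, 68.5 against 20.3 in I/R and 52.9 against 19.0 under SBP, with log2 ratios of 1.86, 1.75 and 1.47. Jag1, a Notch ligand, gave 2.19, 2.35 and 2.42, under 200 UMIs in SBP. The subunits of soluble guanylate cyclase, the nitric oxide receptor that relaxes smooth muscle, gave 2.08, 2.55 and 2.67 for Gucy1a1 and 1.71, 1.51 and 1.24 for Gucy1b1, with Gucy1a1 also under 200 UMIs in SBP. Agtr1a, an angiotensin receptor, was lower in smooth muscle-rich spots, at 10.5 against 17.8 CPM in sham, 6.09 against 14.0 in I/R and 7.55 against 15.7 under SBP, on 13, 8 and 7 UMIs.

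Arterial endothelial genes were enriched: 1 of 2 measured in sham, 6 of 6 in I/R and 2 of 2 under SBP. Over the 9 genes of an arterial endothelial list, the summed level was 228 CPM in smooth muscle-rich and 47.8 CPM in other spots of sham, 323 and 56.0 in I/R, and 323 and 54.5 under SBP, and the log2 ratio was 2.25 (2.06 to 2.44), 2.53 (2.37 to 2.68) and 2.57 (2.38 to 2.75). The arterial gap junction gene Gja5 (connexin 40) had 26.6 against 2.89 CPM in sham, 68.5 against 3.87 in I/R and 50.7 against 3.28 under SBP. Its UMIs reached 200 in I/R alone, where the ratio was 4.15 (3.73 to 4.56). Gja4 (connexin 37) gave log2 ratios of 2.51, 2.79 and 2.58, and Sema3g, a semaphorin of arterial endothelium, 3.63, 3.19 and 3.19, under 200 UMIs in sham. Cldn5, a tight junction gene of endothelium, gave 2.21, 2.07 and 2.74. The general endothelial list had medians of 0.74, 0.47 and 0.74, beside 0.29, 0.52 and 0.32 for all genes. Its enriched members were 1 of 9, 2 of 9 and 1 of 9, beside 5.53%, 14.8% and 7.14% of all genes. Within it Fabp4, abundant in capillaries, was lower in smooth muscle-rich spots, at 447 against 551 CPM in sham, 361 against 500 in I/R and 416 against 491 under SBP.

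Most pericyte genes were not enriched. Of 10 measured, 1 was enriched in sham, 3 in I/R and 1 under SBP, beside 5.53%, 14.8% and 7.14% of all genes. Their medians were 0.54, 0.10 and 0.18, beside 0.29, 0.52 and 0.32 for all genes. Rgs5, a widely used pericyte marker, had 358 against 226 CPM in sham (log2 0.66), 149 against 153 in I/R (-0.04) and 251 against 195 under SBP (0.37). Kcnj8 and Abcc9, the channel subunits of pericytes, gave -0.56 and -0.02 in sham, -0.13 and -0.69 in I/R, and -0.92 and -0.50 under SBP. Cspg4 (NG2), which smooth muscle also makes, was the enriched member in sham, with 1.61, and had 2.10 in I/R and 0.79 under SBP. Pdgfrb and Ndufa4l2 were also enriched in I/R. Pdgfrb had 71.9 CPM there in the top 1% of spots, 76.5 from the 95th to the 99th percentile and 37.6 in other spots. Ndufa4l2 had 56.3, 68.5 and 31.3 CPM. Heart muscle genes were lower in smooth muscle-rich spots, least in sham: the summed cardiomyocyte list had 52192 against 56315 CPM in sham (-0.11), 28414 against 43072 in I/R (-0.60) and 43587 against 52391 under SBP (-0.27).

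Epicardial, adipocyte and most atrial markers were scarce, while blood genes and Nppa were not. The epicardial genes Msln, Upk3b, Upk1b and Lrrn4 had no UMI in smooth muscle-rich spots of any section, nor did the atrial genes Sln and Myl7 or the adipocyte genes Plin1, Cfd, Car3 and Ucp1. A count of 0 allows up to 2.98 CPM in sham, 2.81 in I/R and 3.98 under SBP (upper bound of the 95% Poisson interval), and none of these genes had over 98 UMIs in a whole section. The remaining members of these lists were seen. Of the epicardial list, Wt1 had 1, 4 and 1 UMIs and Krt19 0, 2 and 0, so that the list summed to 0.807 against 2.47 CPM in sham, 4.57 against 2.25 in I/R and 1.08 against 2.66 under SBP. Of the adipocyte list, Cidea had 25.03 against 28.3, 13.7 against 23.5 and 22.7 against 29.7 CPM, and Adipoq 1 UMI, under SBP. Of the atrial list, Myl4 had 11, 8 and 5 UMIs and Dkk3 2, 6 and 1. Nppa, a natriuretic peptide also made by stressed ventricle, had log2 ratios of 1.06, 0.72 and 0.27. With Nppa the atrial list summed to 917 against 439 CPM in sham, 1848 against 1118 in I/R and 1660 against 1373 under SBP. The list of red blood cell genes, mostly haemoglobins, summed to 3224 against 2868 CPM in sham, 5577 against 4038 in I/R and 5962 against 3766 under SBP. Its summed log2 ratios were 0.17, 0.47 and 0.66. Schwann cell genes were scarce, with sums of 17.0 against 7.75 CPM in sham, 11.4 against 8.54 in I/R and 11.9 against 4.59 under SBP. Lymphatic genes without Ccl21a summed to 50.1 against 39.9, 34.3 against 28.6 and 22.7 against 31.1 CPM. Of 6 genes of cardiac injury, 1, 2 and 1 were enriched, beside 5.53%, 14.8% and 7.14% of all genes.

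**Figure D3:**
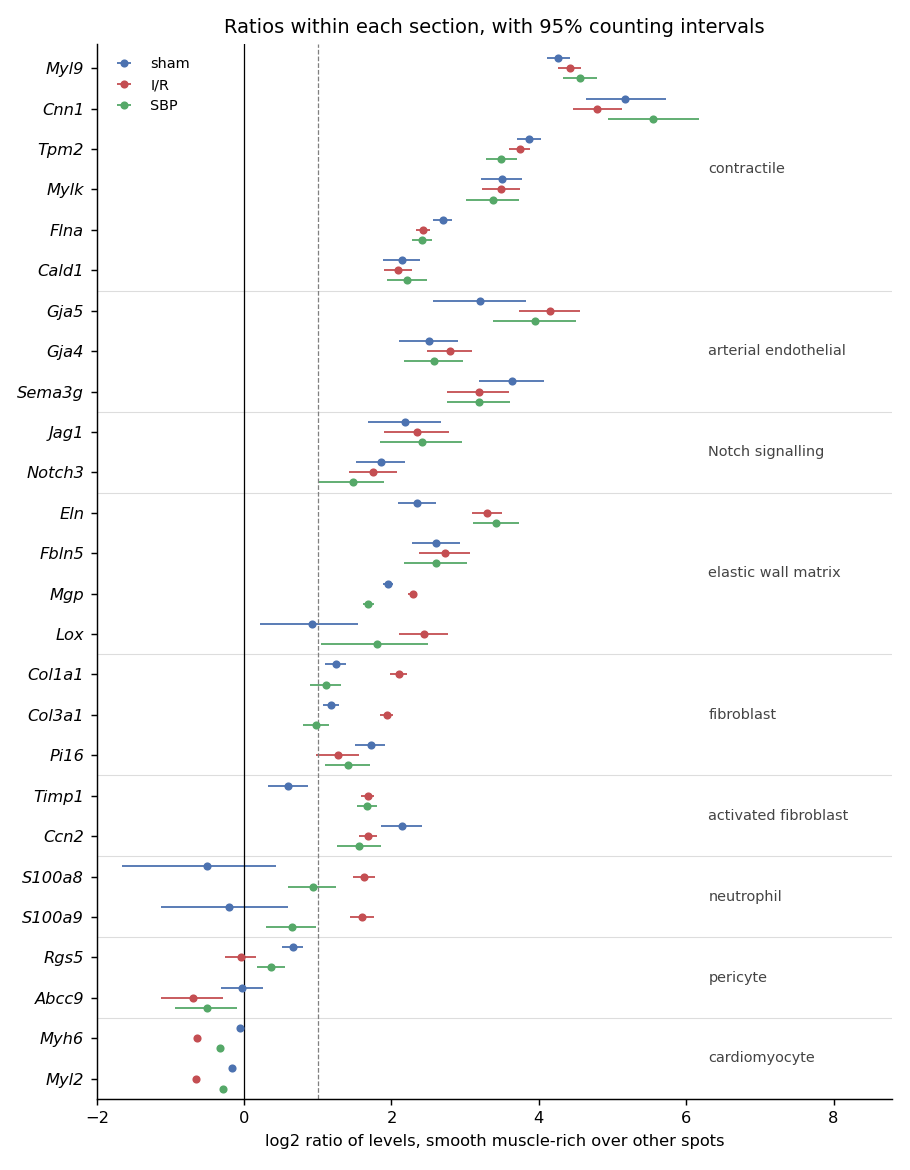
Log2 ratio of levels in smooth muscle-rich over other spots for genes of 9 groups in sham (blue), I/R (red) and SBP (green); bars are 95% counting intervals, the solid line is no difference and the dashed line a 2-fold ratio. Contractile and arterial genes lie well to the right in all sections, collagen genes are furthest right in I/R, S100a8 and S100a9 have intervals that include 0 in sham and ratios of 1.63 and 1.60 in I/R, and the drawn pericyte genes Rgs5 and Abcc9 and cardiomyocyte genes Myh6 and Myl2 lie left of the 2-fold line.

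Matrix genes of the vessel wall were enriched as well. In a list of 12 elastic and wall matrix genes, 7 of 12 were enriched in sham, 10 of 12 in I/R and 7 of 10 under SBP. This stands beside 5.53%, 14.8% and 7.14% of all genes. The list medians were 1.18, 1.58 and 1.21. The count in SBP was 4 without mitochondrial UMIs and 3 without the top 1% of spots. Eln, elastin, had 132 CPM (113 to 154) against 26.0 in sham, 214 (190 to 241) against 21.8 in I/R and 139 (116 to 165) against 13.0 under SBP, so that its log2 ratio was 2.35 in sham, 3.30 in I/R and 3.42 under SBP. Fbln5, an elastic fibre assembly protein, gave 2.61, 2.73 and 2.60. Mgp, which blocks calcification of arteries, was the most abundant, with 1572 against 406 CPM in sham, 1794 against 368 in I/R and 1789 against 556 under SBP. Lox, the enzyme that crosslinks elastin and collagen, had 17.8 against 9.42 CPM in sham, 72.4 against 13.4 in I/R and 21.6 against 6.18 under SBP, on 22, 95 and 20 UMIs in smooth muscle-rich spots. Col18a1, a basement membrane collagen, gave 2.71, 3.82 and 3.98.

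Between the sections, 148 of the 6192 genes with at least 200 UMIs in each were enriched in all 3 (2.39%). On this common set 321 genes were enriched in sham, 703 in I/R and 416 under SBP. Sham and I/R shared 213 genes, 66.4% of the sham genes and 30.3% of the I/R genes. Sham and SBP shared 171 (53.3% and 41.1%), and I/R and SBP shared 260 (37.0% and 62.5%). I/R had the most enriched genes, the highest median ratio of all genes and the widest gap in mitochondrial share. Without mitochondrial UMIs the counts were 179 of 6657 in sham, 292 of 8069 in I/R, 170 of 6361 in SBP and 62 in all 3.

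Among fibroblast genes, the fibrillar collagens had their highest ratios in I/R. Of the fibroblast list, 6 of 9 were enriched in sham, 7 of 10 in I/R and 3 of 9 under SBP, against backgrounds of 5.53, 14.8 and 7.14%. Col1a1, a chain of type I collagen, had 379 against 160 CPM in sham, 583 against 136 in I/R and 223 against 104 under SBP, and log2 ratios of 1.25 (1.10 to 1.38), 2.10 (1.98 to 2.21) and 1.11 (0.89 to 1.31). Col3a1 gave 1.18, 1.93 and 0.98 and Col1a2 1.24, 2.08 and 1.11. Pi16, a gene of adventitial fibroblasts, had 186 against 56.5 CPM in sham, 86.1 against 35.6 in I/R and 108 against 40.7 under SBP, and ratios of 1.72, 1.27 and 1.41. Fbln1, a fibroblast matrix gene, had 1.09, 0.47 and 0.43. With mitochondrial UMIs left out Col1a1 read 0.78, 1.77 and 0.79, and 2, 3 and 1 genes of the list were enriched. Without the top 1% of spots 2 were enriched in sham and 1 under SBP.

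Genes of activated fibroblasts had higher levels in I/R and SBP than in sham, both in and outside these spots. The summed level of the list was 522 CPM in smooth muscle-rich and 215 in other spots of sham, 2519 and 863 in I/R, and 1147 and 378 in SBP. All 7 measured members were enriched in I/R and in SBP, and 5 of 6 in sham. Of all genes, 14.8% were enriched in I/R, 7.14% under SBP and 5.53% in sham. The count in sham was 3 without mitochondrial UMIs, with spots chosen by Myh11 alone and without the top 1% of spots, and the count in SBP was 3 without the top 1%. Timp1, a protease inhibitor, had 101 against 66.5 CPM in sham, 961 against 300 in I/R and 549 against 172 under SBP. Its ratio was 0.60 (0.33 to 0.86) in sham but 1.68 in I/R and 1.67 under SBP. With mitochondrial UMIs left out and the spots chosen again, the Timp1 ratios were -0.03, 1.23 and 1.27. Ccn2, a matricellular growth factor, had 107 against 24.1, 463 against 144 and 117 against 39.4 CPM, and its ratio was highest in sham (2.14, 1.68 and 1.57).

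Genes linked to the switch of smooth muscle away from contraction gave a mixed reading. Of 8 genes, 3 of 6 measured were enriched in sham, 4 of 7 in I/R and 3 of 6 under SBP. The share of all genes was 5.53%, 14.8% and 7.14%. Spp1, osteopontin, had 96.9 against 107 CPM in sham, 954 against 433 in I/R and 273 against 142 under SBP, and log2 ratios of -0.15, 1.14 and 0.95. With mitochondrial UMIs left out and the spots chosen again, the Spp1 ratios were -1.78, 0.69 and 0.21. Spp1 was then not enriched in any section, and the part of the changed spots in this was not tested. A single spot held 39.2% of the Spp1 UMIs in smooth muscle-rich spots of sham and 23.7% of those in I/R. Vim, vimentin, gave 1.37, 1.57 and 1.54. Klf4, a transcription factor of the switch, was enriched in sham alone (1.28, against 0.44 in I/R and 0.03 under SBP), on 57, 31 and 15 UMIs. Macrophages and fibroblasts also make Spp1 and Vim, and their part in these ratios was not tested.

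Neutrophil genes were enriched in I/R and scarce in sham, with 3 of 3 measured enriched in I/R and 0 of 2 in sham and under SBP. The granule proteins S100a8 and S100a9 had 7.27 against 10.3 and 10.5 against 12.1 CPM in sham, on 9 and 13 UMIs in smooth muscle-rich spots. In I/R they had 305 against 98.9 and 279 against 91.6 CPM, and in SBP 94.9 against 49.8 and 83.1 against 53.0. The log2 ratio of S100a8 was -0.51 (-1.66 to 0.44) in sham, 1.63 (1.47 to 1.78) in I/R and 0.93 (0.60 to 1.24) under SBP. In I/R the S100a8 UMIs came from 68 of the 105 spots. The macrophage and monocyte list was higher by 0.55, 0.72 and 0.66 as a sum, while the neutrophil sum gave -0.28, 1.61 and 0.84. Of macrophage and monocyte genes 0 of 7, 2 of 10 and 0 of 9 were enriched, beside 5.53%, 14.8% and 7.14% of all genes.

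**Figure D4:**
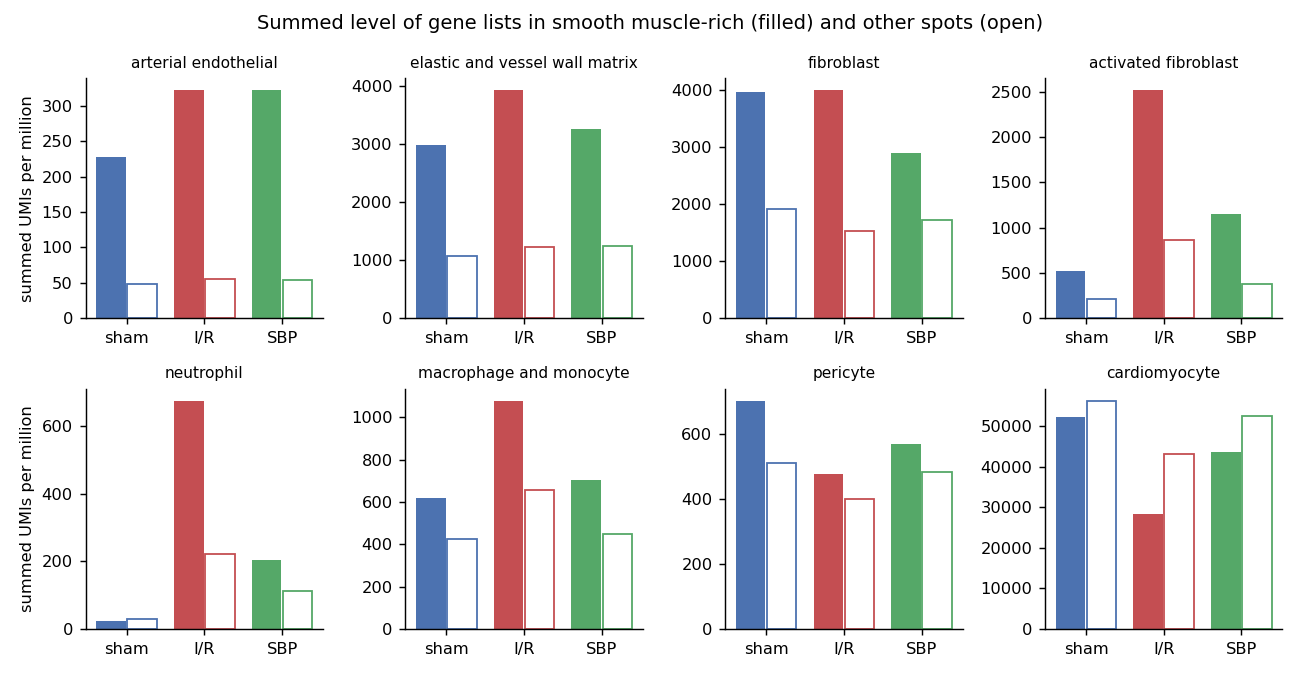
Summed level (CPM) of 8 gene lists in smooth muscle-rich spots (filled bars) and other spots (open bars) of sham, I/R and SBP; axes start at 0 and there is no replicate, so no spread between mice can be drawn. The neutrophil list reads 23.4 in smooth muscle-rich spots of sham, 676 in I/R and 204 under SBP, and the cardiomyocyte list is the one in which the open bar is the taller in every section.

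Levels in smooth muscle-rich spots were then set side by side between sections, among genes with at least 50 UMIs in the pair of spot sets. In I/R 799 of 4791 genes were at least 2-fold higher than in sham (16.7%) and 143 at least 2-fold lower (2.98%). The median gene was 0.38 higher on the log2 scale in smooth muscle-rich spots and 0.21 higher in other spots. Scaling by the median of ratios, which moves each ratio by -0.41, gave 279 higher and 418 lower, and leaving mitochondrial UMIs out gave 451 and 256, so the excess of higher genes depends on the scaling. For the leading genes the difference is also given relative to the median gene. None of the 11 measured contractile genes differed by 2-fold, and their median was 0.17.

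Among genes enriched in at least 1 section, the 5 that were higher by most were S100a8, S100a9, Spp1, Timp1 and Ccl7. S100a8, S100a9 and Spp1 entered this ranking through I/R alone, the section in which they were enriched, and Timp1 through I/R and SBP. Without mitochondrial UMIs the ratios of Ccl7 were -0.65 in sham, 0.79 in I/R and -0.04 under SBP. Entry through I/R favours a higher level in I/R, so these differences are a description only. S100a8 was 5.39 higher (4.45 to 6.53), or 5.02 relative to the median gene, in smooth muscle-rich spots and 3.26 higher in other spots. For any gene, the gap between these differences equals the gap between its I/R and sham ratios. It is therefore no separate result for genes picked by enrichment. Spp1 was 3.30 higher, or 2.92 relative to the median, against 2.01 in other spots, and Timp1 3.25, or 2.88, against 2.17. Ccl7, a monocyte-attracting chemokine, was 3.17 higher (37.9 and 341 CPM), against 1.96 in other spots. Lox was 2.03 higher in smooth muscle-rich spots (1.35 to 2.77) and 0.51 higher elsewhere. Eln was 0.69 higher (0.41 to 0.98) in smooth muscle-rich spots and 0.26 lower elsewhere.

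The 5 that were lower by most were Clec3b, Clec14a, Fbln1, Tnxb and C3. Clec3b, tetranectin, had 80.7 CPM in sham and 22.8 in I/R (-1.82, or -2.20 relative to the median gene). Clec14a, an endothelial lectin, had 33.1 and 9.90 CPM on 41 and 13 UMIs. The matrix genes Fbln1 and Tnxb were lower by 1.48 and 1.38, and the complement gene C3 by 1.13. Fbln1 entered this ranking through sham alone, which favours a fall from sham. Of 8 measured pericyte genes 3 were lower by 2-fold or more, beside 2.98% of all genes. Rgs5 was 1.27 lower (1.03 to 1.52) in smooth muscle-rich spots and 0.57 lower in other spots. Abcc9 was 1.18 and 0.51 lower, and Vtn 1.39 and 0.63 lower. None of the 8 was higher by 2-fold, beside 16.7% of all genes. Their median was -0.005 in smooth muscle-rich spots and -0.14 in other spots, beside 0.38 and 0.21 for the median gene. The summed pericyte list was lower in I/R, with 702 CPM in smooth muscle-rich spots of sham and 478 in I/R. In other spots it had 509 and 399 CPM. Cardiomyocyte genes had a median of -0.86 in smooth muscle-rich spots and -0.33 in other spots.

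In SBP 27 of 4474 genes were at least 2-fold higher than in I/R (0.603%) and 303 at least 2-fold lower (6.77%), with a median gene at -0.27 in smooth muscle-rich and -0.13 in other spots. Median-of-ratios scaling moved each ratio by 0.29 and gave 123 higher and 98 lower, and without mitochondrial UMIs the counts were 64 and 169. The I/R spots enter this comparison as well as the previous one, so that a gene high in I/R alone tends to appear in both. None of 11 contractile genes differed by 2-fold (median -0.37), although each score gene was lower, Acta2 by 0.99, Tagln by 0.62 and Myh11 by 0.49, and the threshold was lower too.

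Igf2, a growth factor with a printed promoter, was higher by most in SBP among genes enriched in at least 1 section, with 40.4 CPM in I/R and 86.3 in SBP, a difference of 1.10 (0.58 to 1.63) in smooth muscle-rich spots and 1.15 in other spots. In sham it had 75.1 CPM, so the level in I/R was the lowest of the 3. Tmem47, Alpl, Scaf1 and Vwf came next, higher by 0.85, 0.81, 0.79 and 0.78, each under 2-fold and with the lower bound of Scaf1 and Tmem47 below 0. Vwf, von Willebrand factor of endothelium, was also 0.87 higher in other spots.

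Lower by most in SBP relative to I/R was Ccl21a (ENSMUSG00000094686), a chemokine of lymphatic endothelium with near-identical gene copies, so that its counts are uncertain. It had 129 CPM in smooth muscle-rich spots of sham, 135 in I/R and 5.39 in SBP, on 160, 177 and 5 UMIs. Igf1, insulin-like growth factor, had 28.3, 60.2 and 14.0 CPM, Ccn2 107, 463 and 117 CPM, and Fcgr3, a Fc receptor of macrophages and neutrophils, 25.8, 64.7 and 15.1 CPM. Yipf5, a Golgi protein, had 25.8, 49.5 and 11.9 CPM. This ranking took genes enriched in at least 1 section, which favours a fall from I/R for a gene enriched in I/R alone. Igf1 was such a gene, while Ccn2 was enriched in every section and Ccl21a in sham and I/R. The collagens were lower by more in smooth muscle-rich spots than in the others: Col1a1 by 1.39 (1.16 to 1.61) against 0.39, and Col3a1 by 1.67 (1.49 to 1.86) against 0.72. As before, such a gap equals the gap between a gene's I/R and SBP ratios and is no separate result. S100a8 was lower by 1.69 against 0.99 elsewhere, and Spp1 by 1.80 against 1.61. Rgs5 was 0.76 higher (0.48 to 1.04) against 0.35. Of 7 measured pericyte genes none was 2-fold higher and 1 was 2-fold lower, beside 0.603% and 6.77% of all genes. Their median was -0.16 in smooth muscle-rich spots and 0.21 in other spots.

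Among genes enriched in at least 1 of the pair, the ratio of smooth muscle-rich over other spots differed most between sham and I/R for Alpl, Tnxb, Uba2, Klf4 and Abca8a, which were lower in I/R, and for S100a8, S100a9, Wac, Zcchc17 and Lox, which were higher. Tnxb, tenascin X, went from 1.41 (1.13 to 1.67) in sham to 0.41 (-0.02 to 0.81) in I/R, and Alpl, an alkaline phosphatase, from 1.58 to 0.46. Between I/R and SBP the ratio was lower for Ccl21a, Fam3c, Igf1, Eps15 and Mmp3, and higher for Cldn5, Sept9, Eif3a, Plekho1 and Dlgap4. Mmp3, a matrix-degrading enzyme, had ratios of 0.97, 2.05 and 0.44 and Igf1 0.96, 1.91 and 0.13 in sham, I/R and SBP. The genes with the lowest ratios of each section rested on few UMIs in smooth muscle-rich spots. H19, Nlk, Arl4d, Glod4 and Uros had 2 to 6 UMIs in sham, Wipf3, Alb, Rai2, Ces1d and Tmod4 had 1 to 4 in I/R, and Fzd6, Cpeb3, Ccl21a, Bche and Bcor had 2 to 6 in SBP.

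Among the smooth muscle-rich spots the values varied widely with the score. In the top 1% of spots (23 in sham, 21 in I/R and 20 under SBP) Myl9 had 1361, 1254 and 922 CPM, against 262, 246 and 182 in the spots from the 95th to the 99th percentile. Eln had 311, 632 and 454 CPM in the top spots and 74.7, 79.5 and 48.6 CPM below them, so the gap between I/R and sham was in the top spots. Mgp had 3140, 4628 and 3759 CPM against 1067, 881 and 1221. The arterial endothelial sum had 454, 729 and 651 CPM against 155, 192 and 228. Rgs5 ran the other way, with 245, 90.7 and 174 CPM in the top spots and 395, 167 and 274 CPM below them. This did not hold for the whole pericyte list, which summed to 666, 485 and 540 CPM against 714, 475 and 575. Its member Cspg4 had 56.3, 172 and 48.3 CPM in the top spots and 26.7, 25.2 and 19.5 CPM below them. The neutrophil sum was 43.1, 469 and 193 CPM in the top spots and 17.1, 743 and 207 CPM below them. For the macrophage and monocyte list the sums were 765, 760 and 651 CPM against 569, 1181 and 720. Both lists were thus lower in the top spots of I/R and SBP and higher in those of sham. The red blood cell sum was 5674, 10457 and 12184 CPM in the top spots and 2434, 4005 and 4171 CPM below them, a measure of blood whose part in the ratios was not tested.

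**Figure D5:**
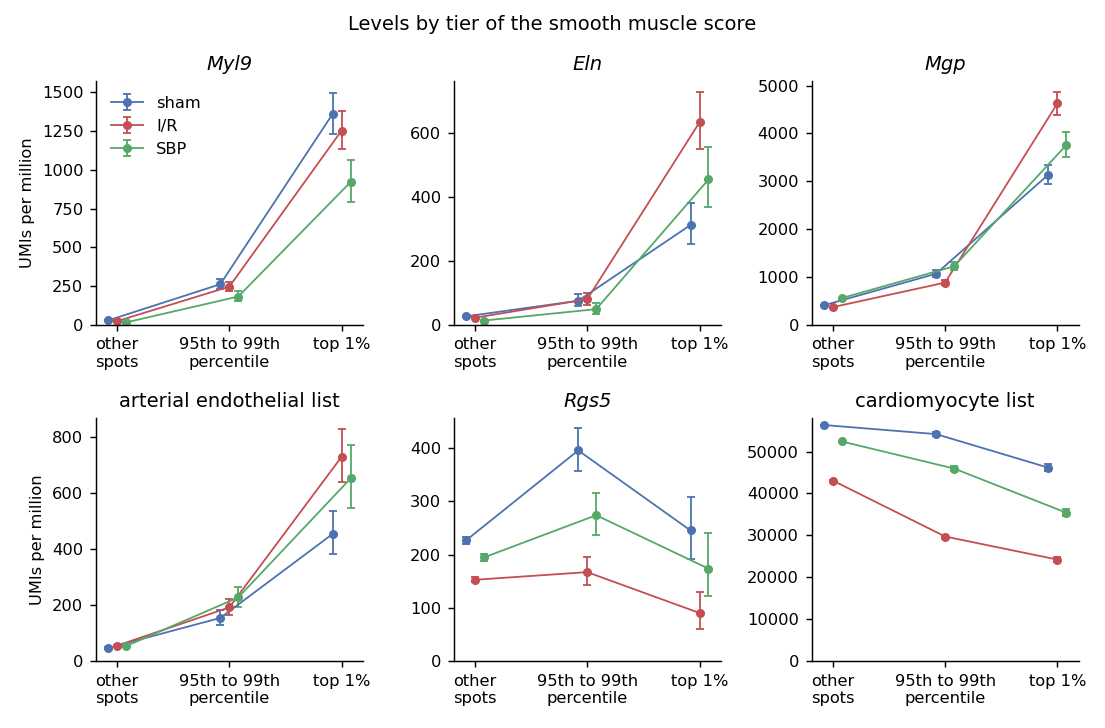
Level (CPM) of 4 genes and 2 lists in other spots, in spots from the 95th to the 99th percentile of the score and in the top 1% of spots, for sham (blue), I/R (red) and SBP (green); bars are 95% Poisson intervals. Myl9, Eln, Mgp and the arterial list are highest in the top 1%, Rgs5 is highest in the middle tier (395 in sham), and the cardiomyocyte list is lowest in the top 1%.

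A part of the smooth muscle-rich spots had no UMI of Myh11: 29 in sham, 29 in I/R and 40 under SBP. In these spots Myl9 was lower, at 133, 124 and 133 CPM against 637, 561 and 429 CPM where Myh11 was detected, but still above the other spots of the section. The neutrophil sum was higher in the spots without Myh11 in I/R (949 against 625 CPM) and SBP (458 against 107 CPM) and lower in sham (7.58 against 27.7 CPM, on 2 and 27 UMIs). The arterial endothelial sum was lower without Myh11: 90.9 against 265 CPM in sham, 148 against 356 in I/R and 137 against 393 under SBP. The activated fibroblast sum was 439 against 545, 2707 against 2483 and 1087 against 1169 CPM. Whether the spots without Myh11 hold vessel wall was not tested.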

How the data were processed

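Spot counts came from 1 Visium section each of sham, I/R and SBP mouse hearts. The authors deposited UMI counts per gene and spot, for spots over tissue, made with Space Ranger 1.3.0 against mm10 per the submitters' processing notes; 32285 genes were listed. Spots with under 200 detected genes (6 in all) were left out. UMIs were summed over smooth muscle-rich and over other spots and divided by each sum's total. Ratios carry exact conditional binomial intervals, levels Poisson intervals and shares Clopper-Pearson intervals, all at 95% and covering counting error only. No test was run, since each condition has 1 section. A call was a ratio of at least 2-fold among genes with at least 200 UMIs in the section, without the 3 score genes, and for ratios between sections at least 200 UMIs in each section and 50 in the smooth muscle-rich spots of the pair. Named genes were the score genes, list members, the 10 highest and 5 lowest ratios per section, and the 5 largest differences in each direction between sections among enriched genes. The smooth muscle-rich spots and the lists were chosen with earlier results of these data known. Alternatives were other percentiles, scores, thresholds, count minimums and scalings, thinning, and leaving out mitochondrial UMIs with the spots chosen again. Doublet calling does not apply to spots, and spot positions were not used here. Analyses used pandas 2.3.3, scipy 1.17.1, matplotlib 3.10.9 and numpy 2.4.6 in Python 3.11.15, and the scripts were tested on simulated counts.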

Additional observations from a re-analysis of the deposited data

Results flagged for a closer look

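A few genes were past the 2-fold line in opposite directions in different sections, which was not tested, since each condition has 1 section. The low side rested on 2 to 5 UMIs in each case. Ccl21a (ENSMUSG00000094686), a lymphatic chemokine, had log2 ratios of 1.06 in sham (160 UMIs in smooth muscle-rich spots), 1.91 in I/R (177 UMIs) and -2.01 under SBP (5 UMIs). These UMIs were spread over 32 spots in sham, 28 in I/R and 5 under SBP. Fmo2 had 1.36 in sham (32 UMIs) and -1.66 in SBP (4 UMIs). Fbrs had -1.21 in sham (5 UMIs) and 1.16 in I/R (31 UMIs). Mms19 had -1.07 in sham (5 UMIs), 1.13 in I/R (29 UMIs) and 1.11 under SBP (18 UMIs). Ccdc186 had 1.13 in I/R (31 UMIs) and -1.25 in SBP (5 UMIs). Rai2 had -2.45 in I/R (2 UMIs) and 1.12 in SBP (20 UMIs).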

How the results depend on the processing

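No paired analysis was possible because sham, I/R and SBP each had 1 section. Single-gene ratios were followed for a part of the genes named in the text. No called ratio among them changed sign under the alternatives run, but many values moved. Of these values 598 fell outside the counting interval of the main result and 817 inside it. At the 98th percentile 102 fell outside and 74 inside, and without the top 1% of spots 98 and 79. The balance of higher and lower genes between sections did change under median-of-ratios scaling, given below. The contractile list stayed within 1.5 times its counts under each alternative run on lists. The numbers of enriched genes, 368 in sham, 1198 in I/R, 454 in SBP and 148 in all 3, depended on the choice of spots and the count minimum. At the 90th percentile they were 119 in sham, 178 in SBP and 64 in all 3, with 51 genes higher in SBP than I/R and 2 fibroblast genes enriched in sham. At the 98th percentile they were 956, 2041, 1229 and 345, with 513 genes higher in I/R than sham and 133 lower in SBP than I/R. Without mitochondrial UMIs they were 179, 292, 170 and 62, with 451 higher and 256 lower in I/R, 64 higher and 169 lower in SBP, 4 matrix genes enriched in SBP, 2, 3 and 1 fibroblast genes and 3 activated fibroblast genes in sham. A single threshold for all sections gave 244 in sham and 836 in SBP. Spots chosen by Myh11 alone gave 208 in SBP and 94 in all 3, with 3 activated fibroblast genes in sham. Giving each spot equal weight gave 703 in SBP and 61 genes higher in SBP than I/R. Without the top 1% of spots the numbers were 194 in sham, 276 in SBP and 51 in all 3, with 3 matrix genes in SBP, 2 and 1 fibroblast genes in sham and SBP, and 3 activated fibroblast genes in each of these. Asking for the whole interval past 2-fold gave 119, 268, 93 and 57, with 221 higher and 25 lower in I/R, and 4 higher and 28 lower in SBP. Thinning spots to 6500 UMIs gave 76 in SBP and 56 in all 3, with ties that raised the SBP spots to 172. A minimum of 500 UMIs gave 120, 506, 149 and 66, and of 50 UMIs 1056, 2192, 1252 and 308. Median-of-ratios scaling gave 279 higher and 418 lower in I/R, and 123 higher and 98 lower in SBP. In spots chosen by all 3 genes the log2 ratio of Myh11 was 4.998 in sham and 5.37 in SBP, that of Tagln 4.99 in sham, and that of Acta2 2.82, 4.50 and 4.54. The cause of these shifts was not tested. Depth limited genes with few UMIs, such as Myocd, and the 1 section per condition leaves the spread between mice unmeasured.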
